A study of Mus musculus with 8 samples.

Results

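The 42 genes described here encode histone methyltransferases, histone demethylases and chromatin remodelling proteins. They were chosen by name from these 3 classes. All 42 were listed in the RNA tables among 11315 genes. In the tables of reduced representation hydroxymethylation profiling (RRHP), all 42 named the exon or intron of at least 1 CpG site, among 19925 such genes, and 39 named a promoter, among 16817 genes. The promoter column held no site for Kdm6b, Chd2 or Chd8. The 42 genes covered 3299 of the 1497075 CpG sites read, counted separately on each DNA strand. By role they fell into 4 Polycomb genes, 7 genes of the H3K4 methyltransferase families, 8 other methyltransferases, 10 demethylases, 7 subunits of the BAF complex, and 6 genes of the CHD and INO80 remodellers.

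RNA and hydroxymethylated DNA were measured in 2 glial populations sorted by fluorescence from the brains of C57BL/6 mice 60 days after birth. The progenitors of adult oligodendrocytes (aOPC) carried the reporter Pdgfra-H2BEGFP, in which the Pdgfra locus drives a fluorescent histone, and adult oligodendrocytes (aOL) carried Plp-EGFP. DNA and RNA came from the same cell pellets, with 2 libraries for each population and assay, numbered 2 and 3. The question put to the data was how RNA and DNA hydroxymethylation differ between progenitors and their differentiated progeny. Since reporter line and population change together, an effect of the line and an effect of the cell type cannot be told apart. The tissue label of the aOL RRHP libraries names the Pdgfra reporter, so their titles set the group. For the aOL RNA libraries, titles call the cells pre-myelinating, where the extraction protocol calls them myelinating. Nothing in the labels says how many animals went into each pellet, so the p-values measure the spread between these libraries. In sorted bulk samples, fewer cells of a type and less RNA per cell cannot be told apart.

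Histone methyltransferases add methyl groups to lysines or arginines of histone tails, and demethylases take them off. Marks of Polycomb proteins, on lysine 27 of histone H3, accompany silent genes, whereas marks of the trithorax-type enzymes, on lysine 4, accompany active promoters and enhancers. Remodellers of the BAF, CHD and INO80 families use ATP to move, eject or exchange nucleosomes. In the oligodendrocyte lineage, Ezh2, Smarca4, Chd7 and Chd8 are known for their parts in the passage from progenitor to myelinating cell. RRHP reads the modified cytosine 5-hydroxymethylcytosine at CCGG, the sequence cut by the enzyme MspI, because a sugar added to that cytosine blocks the cut and leaves a fragment that can be sequenced. A higher count thus stands for more hydroxymethylated copies of a site, and a site with no CCGG cannot be read.

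The list of progenitor markers did not separate the RNA libraries by their labels, and oligodendrocyte markers were high in all 4. Pdgfra was at 7.54 and 5.47 on the log2 scale in the aOPC libraries versus 4.98 and 1.63 in the aOL libraries. The median of 12 oligodendrocyte markers was 17.38 and 16.75 in the libraries labelled aOPC against 17.40 in both labelled aOL, and the median of 11 progenitor markers was 9.34 and 7.07 against 8.34 and 9.33. Medians ran from 7.07 to 8.32 for 10 microglial markers, from 8.74 to 10.13 for 8 astrocyte markers, and from 4.86 to 7.27 for 6 neuronal markers, each with its highest value in aOPC replicate 2. Of 8 endothelial and mural markers, 2 were listed, Kdr and Cldn5, and their median was 4.70 and 5.58 against 7.83 and 8.60. The Y-linked genes Ddx3y and Kdm5d stood at 12.43 and 9.57 in aOPC replicate 2 and at no more than 1.80 in the other 3 RNA libraries. Summed over the deposited CpG sites, the RRHP libraries held 7113237 and 17121440 reads for aOPC and 15923775 and 27057859 for aOL. The larger read totals that the study's methods list were not used here. All directions below are therefore between libraries as labelled, and the part of these marker levels in them was not tested.

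RRHP reads over gene bodies differed between the populations at 1 of the 42 genes. For each gene, the reads at all sites named for its exons or introns were summed, including sites that also carried a promoter name. The sums were tested with the quasi-likelihood test of edgeR over 18488 genes. A gene was called at an adjusted p under 0.05 (Benjamini-Hochberg). Of all genes tested, 0.849% were called. The called member was Kdm1a, also known as LSD1, which removes methyl groups from lysine 4 of histone H3. Its gene body, on chromosome 4 from 136550533 to 136602787 (GRCm38, minus strand), held 227 and 528 reads in the aOPC libraries versus 75 and 147 reads in the aOL libraries. In counts per library total of 1000000 reads (CPM), this was a mean of 31.4 ± 0.759 (SD, n = 2) against 5.07 ± 0.511 CPM (SD, n = 2). Both aOL libraries lay far below both aOPC libraries, and the gene body fell by 2.62 on the log2 scale (SE 0.17, adjusted p = 4.68e-05 by edgeR). By p it ranked 4 among the 18488 gene bodies.

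The reads of Kdm1a sat on few sites. Of its 37 sites, 7 had enough reads for a test of their own (at least 10 reads in at least 2 libraries), and 4 of these were called. Called sites of the members, other than those of Arid1a and 1 of Chd7, passed this filter through 1 population alone, so to be tested they had to differ, and without either library of that population they could not be tested. Their p-values are given with that limit. Across all members, 1013 sites were tested and 20 called, 13 of them higher in aOL (1.21% of the 443062 sites tested in the genome) and 7 lower (1.08%). The 8 called member sites with the smallest p lay in Kdm1a, Kmt2b and Chd4. They are printed here, with the remaining called site of Kdm1a, because the site results below turn on them. Each is read 5′ to 3′ on the strand that was counted, from the GRCm38 reference, with the CCGG in capitals. The stretches are 64 bases where the annotation (GENCODE M21) has only introns and 24 bases where it has an exon.

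Kdm1a, minus strand, chr4:136552042-136552065, exon of a non-coding transcript and also in an intron of Luzp1: ctgatttgtcCCGGtattagtaat
Kdm1a, minus strand, chr4:136587217-136587280, intron: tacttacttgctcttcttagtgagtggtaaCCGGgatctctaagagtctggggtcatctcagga
Kdm1a, plus strand, chr4:136551961-136551984, coding exon and also in an intron of Luzp1: aataggagccCCGGgcccacggat
Kdm1a, plus strand, chr4:136595461-136595524, intron: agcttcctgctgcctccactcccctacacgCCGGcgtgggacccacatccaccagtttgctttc
Kmt2b, minus strand, chr7:30584983-30585006, coding exon: ggcttcaatgCCGGtgagtgtgtt
Chd4, plus strand, chr6:125117371-125117434, intron: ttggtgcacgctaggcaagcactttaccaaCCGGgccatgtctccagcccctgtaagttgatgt
Chd4, plus strand, chr6:125105797-125105860, intron: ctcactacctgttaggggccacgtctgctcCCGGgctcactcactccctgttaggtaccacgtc
Chd4, minus strand, chr6:125105797-125105860, intron, the other strand of the site above: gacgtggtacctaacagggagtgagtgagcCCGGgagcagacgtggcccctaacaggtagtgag
Chd4, plus strand, chr6:125105334-125105357, coding exon: tggaataaaaCCGGagtggatgat

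All 3299 member sites fell on a CCGG of GRCm38, so the reference held a site that MspI can cut at each of them. The sequence of the animals themselves was not analysed here. The cytosine counted is given below by its own position, counted from 1.

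The site of Kdm1a with the smallest p, at 136552054, lay near the 3′ end of the gene, 50.7 kb from its start. It held 129 and 213 reads in the aOPC libraries versus 1 and 2 in the aOL libraries. Pooled over the libraries of each population, the CPM level in aOPC was 202 times that in aOL (95% counting interval 68.6 to 985, adjusted p = 3.14e-06 by edgeR). This site by itself gave 56.8% and 40.3% of the gene-body reads in the aOPC libraries versus 1.33% and 1.36% in the aOL libraries. A neighbour 82 bases away, in the coding exon at 136551972, held 17 and 63 reads in aOPC and none in aOL, a level at least 20.3-fold lower in aOL against a floor of 3 reads per library (adjusted p = 4.23e-05).

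In the intron 15.5 kb from the start, the site at 136587249 held 22 and 93 reads in the aOPC libraries versus 0 and 1 in the aOL libraries. The ratio was 204 (95% counting interval 35.9 to 8125, adjusted p = 1.34e-05). A site 64 bases from it, at 136587185 on the same strand, held 5 and 19 reads in aOPC versus 25 and 34 in aOL, and its adjusted p was 0.825. The fourth called site, at 136595492, went the other way, with no read in either aOPC library and 16 and 35 reads in the aOL libraries, at least 3.85-fold higher in aOL (adjusted p = 0.00426). Called and uncalled sites of Kdm1a were thus interleaved along the gene.

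Among the 17 gene sites of Kdm1a with at least 10 reads over the 4 libraries, promoter included, 7 had at most 3 reads in aOL and more in aOPC, and 1 had the reverse. The gene body without the 4 called sites held 59 and 159 reads against 58 and 109, or 8.29 and 9.29 CPM in aOPC versus 3.64 and 4.03 in aOL. Only 3 sites of the gene body were read at least 3 times in every library, a condition that by itself leaves out every site low in 1 population. Over these, the counts were 23 and 48 in aOPC versus 49 and 76 in aOL, 3.23 and 2.80 against 3.08 and 2.81 CPM.

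**Figure D1:**
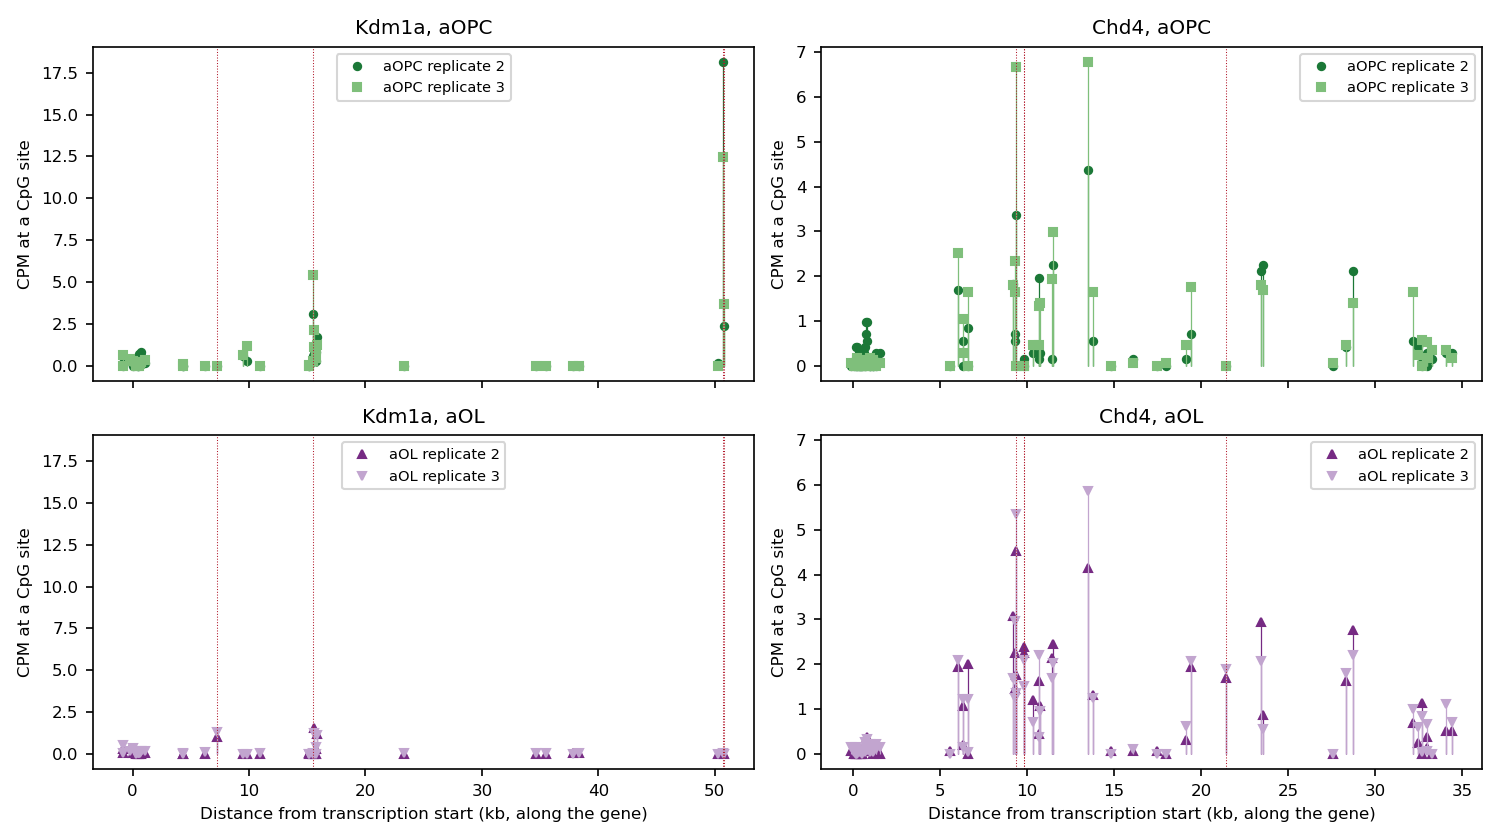
RRHP reads in CPM at every CpG site of Kdm1a and Chd4, against the distance from the transcription start in kb, with the 2 aOPC libraries above and the 2 aOL libraries below. Dotted lines mark called sites. In Kdm1a the tallest sites of aOPC, at 15.5 and 50.7 kb, were near 0 in aOL, whereas most tall sites of Chd4 stood at like heights in both populations.

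Sites called in both directions were crowded around Kdm1a. Within 1 Mb on either side of the gene, 1103 further sites were tested, and 47 were called higher and 81 lower in aOL, which is 11.6%, against 2.29% of all sites tested. In the 1 Mb step just above its start (towards higher coordinates), 6.46% of sites were called higher and 11.5% lower, and in the step just below, which holds the gene itself, 1.78% and 2.90%. Of 35 other gene bodies within 1 Mb, 2 were called, both lower in aOL. These were Usp48 (484 and 1348 reads against 595 and 923, log2 difference -1.06) and Zbtb40 (709 and 1691 against 977 and 1546, log2 difference -0.75). Luzp1, which overlaps the 3′ end of Kdm1a, was not called (74 and 86 reads against 135 and 226, adjusted p = 0.883 by edgeR). The called Kdm1a sites that also lie in a Luzp1 intron carried only the name Kdm1a in the deposited columns. Their reads were therefore not in the Luzp1 sum, which cannot show to which gene they belong. The part of this neighbourhood in the result for Kdm1a was not tested. A CCGG changed in sequence in 1 of the 2 reporter lines would have no reads whatever its hydroxymethylation, and for sites near 0 in 1 population these possibilities cannot be told apart here. The same holds for the sites of Kmt2b and Chd4 below.

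**Figure D2:**
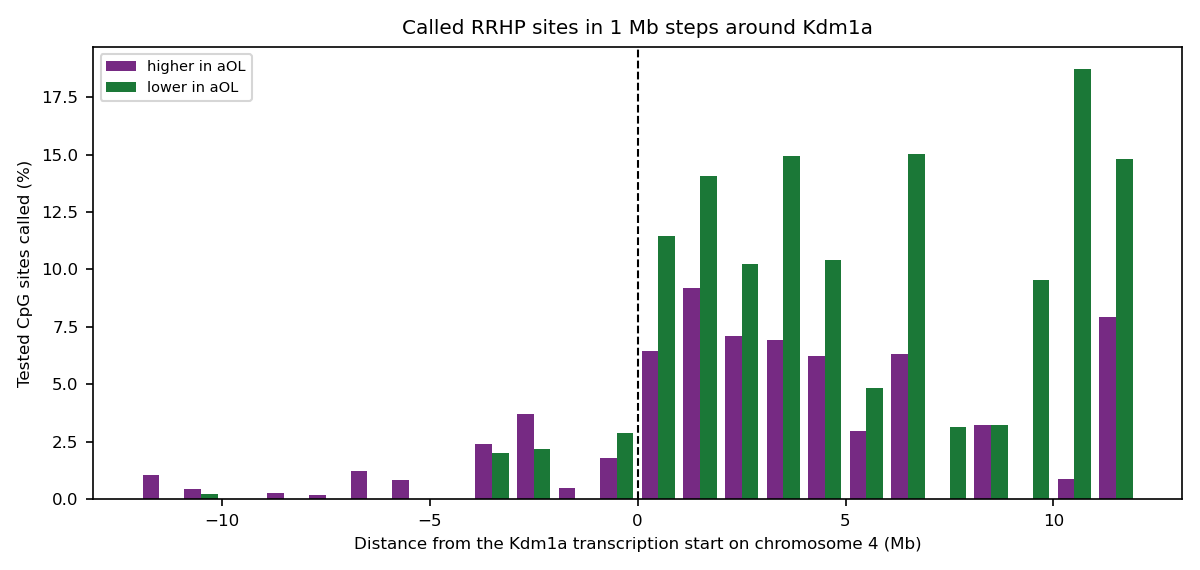
Share of tested CpG sites called higher or lower in aOL, in percent, in steps of 1 Mb along chromosome 4 from 12 Mb below to 12 Mb above the Kdm1a transcription start (dashed line at 0; positive values are higher coordinates, and the gene runs towards negative ones). Both bars stayed at or under 3.70% in every step below the start. Above it, lower sites made up 11.5% in the nearest step and at most 18.8%, in the step from 10 to 11 Mb, which held 112 tested sites.

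Around the 42 genes, the share of tested sites called within 1 Mb had a median of 0.941% and passed 5% for 6 of them, Kdm1a included. It was largest, 18.2%, around Kmt2b, a methyltransferase of lysine 4 of histone H3. The called site of Kmt2b, in a coding exon at chromosome 7 position 30584995, held 21 and 88 reads in the aOPC libraries versus 1 and 0 in the aOL libraries. The ratio was 193 (95% counting interval 34.0 to 7705, adjusted p = 2.02e-05). The gene body of Kmt2b as a whole held 52.5 ± 1.67 and 47.0 ± 1.08 CPM (SD, n = 2 each) and was not called. Without that site, the aOPC libraries stood at 48.4 and 48.5 CPM and the aOL libraries at 46.2 and 47.8, slightly lower and without overlap.

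Chd4, the ATPase of the NuRD complex, held 4 called sites, all higher in aOL. The site at 125117402 had no read in either aOPC library and 27 and 51 in the aOL libraries, at least 6.00-fold higher. At 125105828 the aOPC libraries again had none and the aOL libraries 36 and 41, at least 6.33-fold higher. The opposite strand of that CCGG, at 125105829, had 1 and 0 reads against 38 and 57, a ratio of 53.6 (95% counting interval 9.38 to 2138). The 4 adjusted p ran from 0.000851 to 0.00151, under the limit that these sites passed the filter only through the aOL libraries.

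The exonic site of Chd4 at 125105345 held no read in aOPC versus 28 and 37 in aOL, at least 5.24-fold higher. Over the whole gene body, the reads were 256 and 825 in aOPC versus 884 and 1494 in aOL, or 36.0 and 48.2 against 55.5 and 55.2 CPM. The aOL libraries were both above the aOPC libraries, by 0.37 on the log2 scale (SE 0.15, adjusted p = 0.632 by edgeR), and the gene was not called. This difference was 0.18 without aOPC replicate 2 and 0.64 without aOPC replicate 3. Without the 4 called sites, the levels were 35.8 and 48.2 CPM in aOPC versus 47.4 and 48.3 in aOL, and the populations overlapped. Of 39 Chd4 sites with at least 10 reads over the 4 libraries, promoter included, 6 had at most 3 reads in aOPC and more in aOL. These were the 4 called sites and 2 promoter sites with no more than 7 reads in any library, where the CPM levels of the populations were close or overlapped. Within 1 Mb of Chd4, 4.26% of further tested sites were called.

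The remaining called sites lay in 8 genes. Sites higher in aOL were found in Chd7 (2 sites), and 1 each in Kdm4b, Kdm2b, Smarca4, Dot1l, Setdb1 and Smarca2. Arid1a had 3 sites that were lower in aOL. Of all 20 called sites, 11 had at most 3 reads in the lower population. The sites of Arid1a had at least 12 reads in every library. With 10 reads required in every library they were still tested, and none of them was called. Its 2 sites on opposite strands of the CCGG at 133732045 and 133732046 held 60 and 89 reads, and 27 and 111, in aOPC, against 40 and 73, and 24 and 65, in aOL. On pooled CPM, aOPC was higher by 2.34 (95% counting interval 1.82 to 3.01) and 2.75 times (2.09 to 3.63). The counts of called member sites moved with the library left out, from 0 to 35 for higher and from 2 to 40 for lower sites, both extremes of 35 and 40 without aOPC replicate 3 and the 0 without either aOL library. Calls over all sites moved alike, to 10623 higher and 15643 lower (6.74% of those tested) without aOPC replicate 3, and to 306 and 252 higher without 1 or the other aOL library. By place, 15 of the called sites were intronic and 5 exonic in the deposited columns, and none lay in a promoter or a CpG island. No promoter site of Chd4 or Ezh2 had enough reads for a test. How many promoter or island sites of the other members were tested was not counted, so the places are given with that limit.

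Counted over the 42 gene bodies, 3 were at an unadjusted p under 0.05 and lower in aOL, and 2 were higher. Over all 18488 genes, 4.48% were lower and 2.82% higher by that rule. The median difference over the 42 was 0.06 on the log2 scale, against -0.0027 over all gene bodies, and 26 of 42 were above 0, against 49.6% of all. The median of the 42 was -0.02 without aOPC replicate 2 and 0.14 without aOPC replicate 3. Without aOPC replicate 3, edgeR called 7 members higher and 3 lower, where 22.6% of all gene bodies were called, and without aOPC replicate 2 it called 2 lower, Kdm1a and Arid1a, where 3.27% were called. The 3 lower ones without aOPC replicate 3 were Kdm1a, Arid1a and Ezh2. Kdm1a was called without any 1 of the 4 libraries. Where 1 library of a population was left out, the remaining one was assumed to vary like the pair of the other population.

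Ezh2, the catalytic methyltransferase of Polycomb repressive complex 2, was among the lower gene bodies. It held 88 and 130 reads in the aOPC libraries versus 63 and 159 in the aOL libraries, or 12.4 and 7.59 CPM against 3.96 and 5.88. The populations did not overlap, but the aOPC libraries were themselves far apart. Of the 38 Ezh2 sites, 25 carried a promoter name and 31 an exon or intron name, so some counted in both sums. The difference was -0.97 (SE 0.30, adjusted p = 0.335 by edgeR). No Ezh2 site with at least 10 reads in all had 3 reads or fewer in 1 population, and none of 584 tested sites within 1 Mb was called. Ezh1, the paralogue that can replace Ezh2 in the complex, held 36 and 106 reads against 119 and 219 (difference 0.44, adjusted p = 0.744). The other Polycomb genes, Eed and Suz12, which hold the complex together, had differences of -0.03 and -0.09.

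Arid1a, the DNA-binding subunit that defines 1 form of the BAF complex, held 688 and 1511 gene-body reads in aOPC versus 1088 and 1725 in aOL. In CPM this was 92.5 ± 5.99 against 66.0 ± 3.23 (SD, n = 2 each), with both aOL libraries below both aOPC libraries. The difference was -0.49 (SE 0.12, adjusted p = 0.152). Without the 3 called sites, the aOPC libraries stood at 82.7 and 74.1 CPM and the aOL libraries at 63.6 and 58.1, still apart. Around Arid1a, 1183 further sites within 1 Mb were tested, and 35 were called higher and 20 lower in aOL, or 4.65%. The part of this neighbourhood in the difference was not tested. The other 6 BAF genes, Smarca2 and Smarca4 (the alternative ATPases), Smarcc1, Smarcc2 and Smarcd1 (core subunits) and Arid1b, had positive differences of 0.04 to 0.31. None of these was at an unadjusted p under 0.05.

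Among the remaining methyltransferases, Ehmt1, which methylates lysine 9 of histone H3 together with Ehmt2, held 178 and 541 reads in aOPC versus 626 and 940 in aOL. The difference was 0.35 (SE 0.15, adjusted p = 0.658 by edgeR), with both aOL libraries above. It was 0.20 without aOPC replicate 2 and 0.57 without aOPC replicate 3. Setd1a, a catalytic subunit of the COMPASS complex on lysine 4, held 149 and 459 reads against 459 and 887. Its difference was 0.34 (SE 0.16, adjusted p = 0.705 by edgeR), 0.19 without aOPC replicate 2 and 0.58 without aOPC replicate 3. In the fit of all 4 libraries it was the largest in size among these H3K4 genes. The other 6, Kmt2a to Kmt2e and Setd1b, lay between -0.17 and 0.06. The other 7 of the remaining methyltransferases were Setd2 (lysine 36), Setd5, Setdb1 (lysine 9), Ehmt2, Nsd1 (lysine 36), Dot1l (lysine 79) and Prmt5 (arginines), and lay between -0.10 and 0.17. The 9 demethylases other than Kdm1a ran from -0.08 to 0.29, and all 6 CHD and INO80 genes were positive, from 0.06 to 0.37.

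The level of RRHP reads in gene bodies also varied between genes. Divided by the number of sites, the mean level ran from 0.208 CPM per site in Kdm5b to 1.49 in Kdm3a, both demethylases. The median was 0.729 over the 42 genes and 0.605 over all 18488 gene bodies. The 42 genes had from 12 to 314 sites in their bodies, with a median of 49.5 against 22 over all genes. Exons held 22.6% of the members' sites and from 33.4% to 36.4% of their reads in the 4 libraries, against 13.0% of the sites and 17.3% to 18.3% of the reads over all genes.

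**Figure D3:**
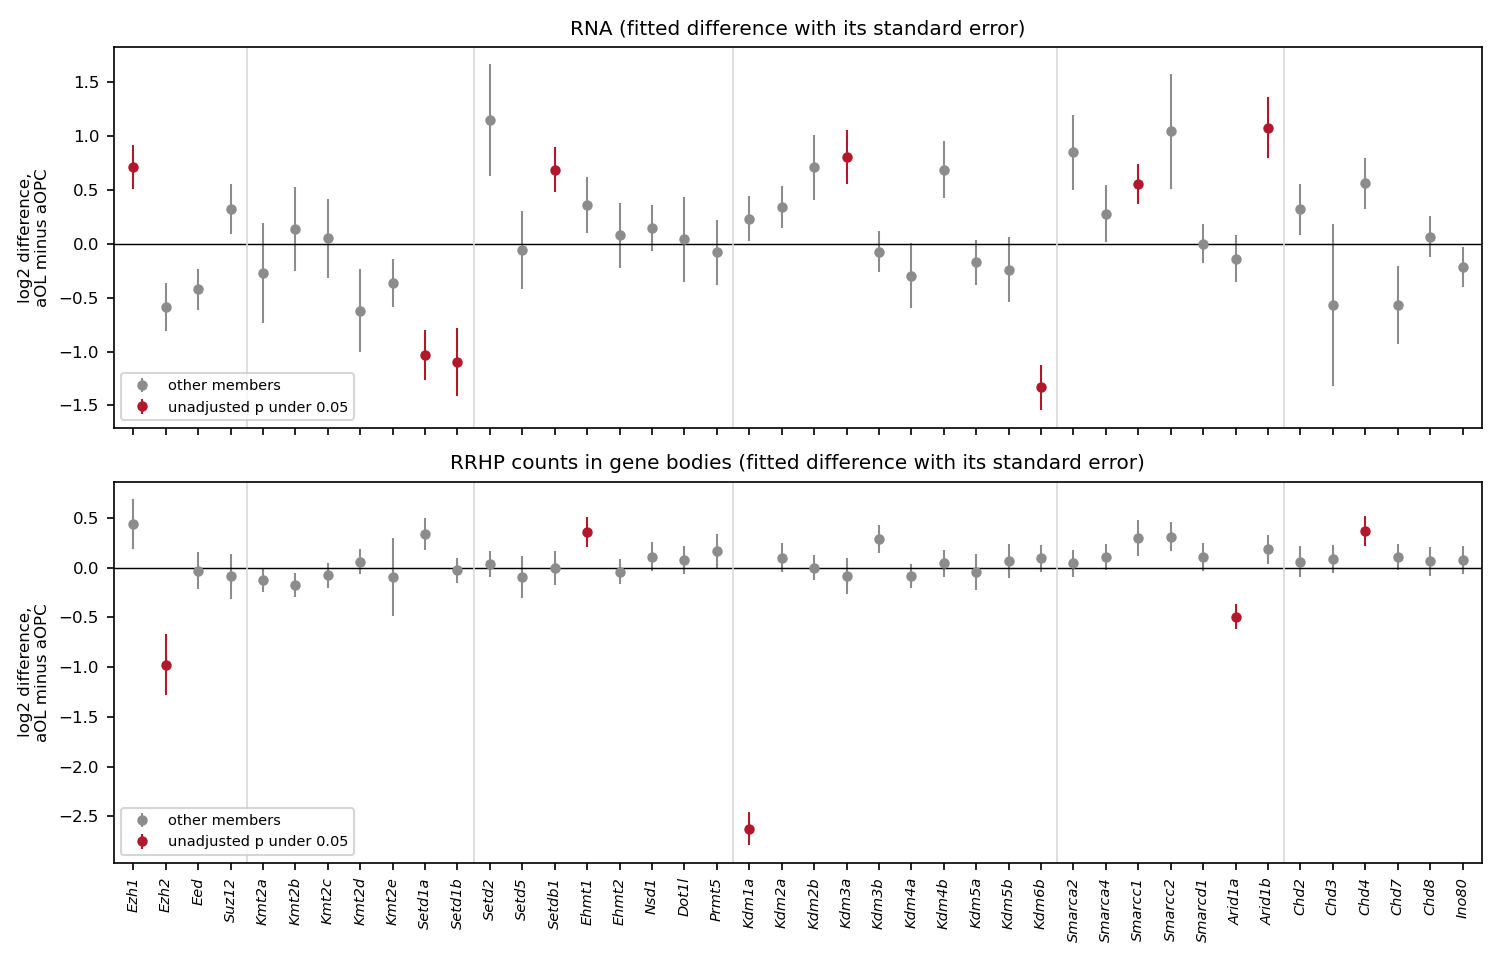
Fitted log2 difference, aOL minus aOPC, with its standard error for each of the 42 genes, in RNA (upper panel) and in RRHP gene bodies (lower panel). Red points were at an unadjusted p under 0.05, and grey lines separate the role groups in the order of the text. Kdm1a lay at -2.62 in gene bodies, apart from the other 41 genes, and at 0.23 in RNA.

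None of the 42 genes was called in RNA. The deposited log2 values were compared with limma over 11133 genes, a gene being called at p under 0.01 and an adjusted p under 0.05, and 0.0808% of all genes were called. By an unadjusted p under 0.05, 5 members were higher in aOL, where 12.1% of all genes were, and 3 were lower, where 12% of all genes were. The aOL and aOPC libraries did not overlap for 16 members that were higher (31.9% of all genes) and 11 that were lower (29.9% of all genes). The shares of members were near those of all genes. The median difference was 0.06 over the members, against 0.02 over all genes tested. Without aOPC replicate 2, these medians were 0.40 and -0.0012. The RNA files hold no counts, so the reads behind a value of a gene cannot be read from them, and the totals of mapped reads that the study's methods list were not used here.

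Among the Polycomb genes, Ezh1 was at 12.28 and 12.07 on the log2 scale in the aOPC libraries versus 12.94 and 12.83 in the aOL libraries. Both aOL libraries were higher, by 0.71 (SE 0.20, adjusted p = 0.168 by limma). Its paralogue Ezh2 was at 9.65 and 9.34 in aOPC versus 8.82 and 8.99 in aOL, lower by 0.59 with no overlap (SE 0.22, adjusted p = 0.215). The excess of Ezh1 over Ezh2 within a library was thus 2.63 and 2.74 in aOPC versus 4.12 and 3.84 in aOL on the log2 scale, a shift of 1.30. This pair was picked after its values were seen, and each excess also carries the lengths of the 2 transcripts, which cancel in the shift. Eed was lower by 0.42 and Suz12 higher by 0.32, each without overlap and with adjusted p of 0.26 and 0.436.

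Of the 7 genes of the H3K4 methyltransferase families, the SET1 paralogues had the most negative differences in the fit of all 4 libraries. Setd1a was at 9.17 and 9.52 in aOPC versus 8.41 and 8.21 in aOL, a difference of -1.03 (SE 0.23, adjusted p = 0.14). Setd1b was at 9.25 and 9.92 in aOPC versus 8.34 and 8.65 in aOL, a difference of -1.09 (SE 0.32, adjusted p = 0.17). For both genes the aOL libraries lay below the aOPC libraries. The 5 KMT2 genes (Kmt2a to Kmt2e, of which the products of Kmt2a to Kmt2d are active enzymes) ran from -0.62 to 0.13, and Kmt2a, Kmt2b and Kmt2c overlapped between populations. In Kmt2a, aOPC replicate 2 was at 12.15, replicate 3 at 10.93, and the aOL libraries at 11.25 and 11.28, between them.

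Among the other methyltransferases, Setdb1 was at 10.97 and 10.73 in aOPC versus 11.48 and 11.60 in aOL. Both aOL libraries were higher, by 0.68 (SE 0.21, adjusted p = 0.175). In the fit of all 4 libraries, the largest difference of this group belonged to Setd2, the enzyme that trimethylates lysine 36 along transcribed genes. It was at 11.59 and 10.20 in aOPC versus 12.12 and 11.96 in aOL. Its difference of 1.14 had an SE of 0.52 (adjusted p = 0.267 by limma), with the aOPC libraries 1.39 apart. Without aOPC replicate 3 its difference was 0.45, below the 0.56 of Setdb1, and without aOPC replicate 2 it was 1.84. The other 6 genes of the group lay between -0.08 and 0.36.

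The demethylase Kdm6b, also called JMJD3, which removes the Polycomb mark, had the smallest p of all 42 genes. It was at 8.90 and 8.99 in the aOPC libraries versus 7.47 and 7.76 in the aOL libraries. Replicates were close within each population and both aOL libraries were lower, by 1.33 (SE 0.21, adjusted p = 0.124 by limma). Kdm3a, which demethylates lysine 9, was at 11.55 and 11.07 in aOPC versus 12.07 and 12.15 in aOL, a difference of 0.80 (SE 0.25, adjusted p = 0.18). Kdm1a, called in RRHP, was at 11.70 and 11.56 in aOPC versus 11.74 and 11.99 in aOL, a difference of 0.23 (SE 0.21, adjusted p = 0.527). The other 7 demethylases, Kdm2a, Kdm2b, Kdm3b, Kdm4a, Kdm4b, Kdm5a and Kdm5b, lay between -0.30 and 0.71.

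Of the 7 BAF genes, 6 had RNA differences above 0, as did 51.3% of all genes. Their median difference was 0.55, and the median level of the group was 12.77 in aOPC replicate 2 and 11.93 in aOPC replicate 3, against 12.92 and 12.91 in aOL, so that aOPC replicate 3 stood apart. Smarcc1 was at 11.68 and 11.63 in aOPC versus 12.18 and 12.22 in aOL, a difference of 0.55 (SE 0.19, adjusted p = 0.193). Arid1b was at 11.56 and 10.94 in aOPC versus 12.28 and 12.37 in aOL, a difference of 1.08 (SE 0.28, adjusted p = 0.158). In both genes the aOL libraries were higher without overlap, whereas Arid1a, the alternative to Arid1b in the complex, had a difference of -0.14 and overlapped. Smarca2 and Smarcc2 had differences of 0.85 and 1.04 with SE of 0.35 and 0.53, Smarca4 of 0.28, and Smarcd1, with all 4 libraries from 12.95 to 12.98, of 0.00.

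The CHD and INO80 group held no gene at an unadjusted p under 0.05. Its largest difference, -0.57, was that of Chd3, at 8.09 and 6.05 in aOPC versus 6.74 and 6.26 in aOL. The aOPC libraries spanned the aOL libraries, and the SE was 0.75. Chd4 was higher in both aOL libraries by 0.56 (adjusted p = 0.247), and Chd7 lower by 0.57 (13.17 and 12.27 against 12.12 and 12.19, adjusted p = 0.387). Chd2, Chd8 and Ino80 had differences of 0.32, 0.06 and -0.21.

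**Figure D4:**
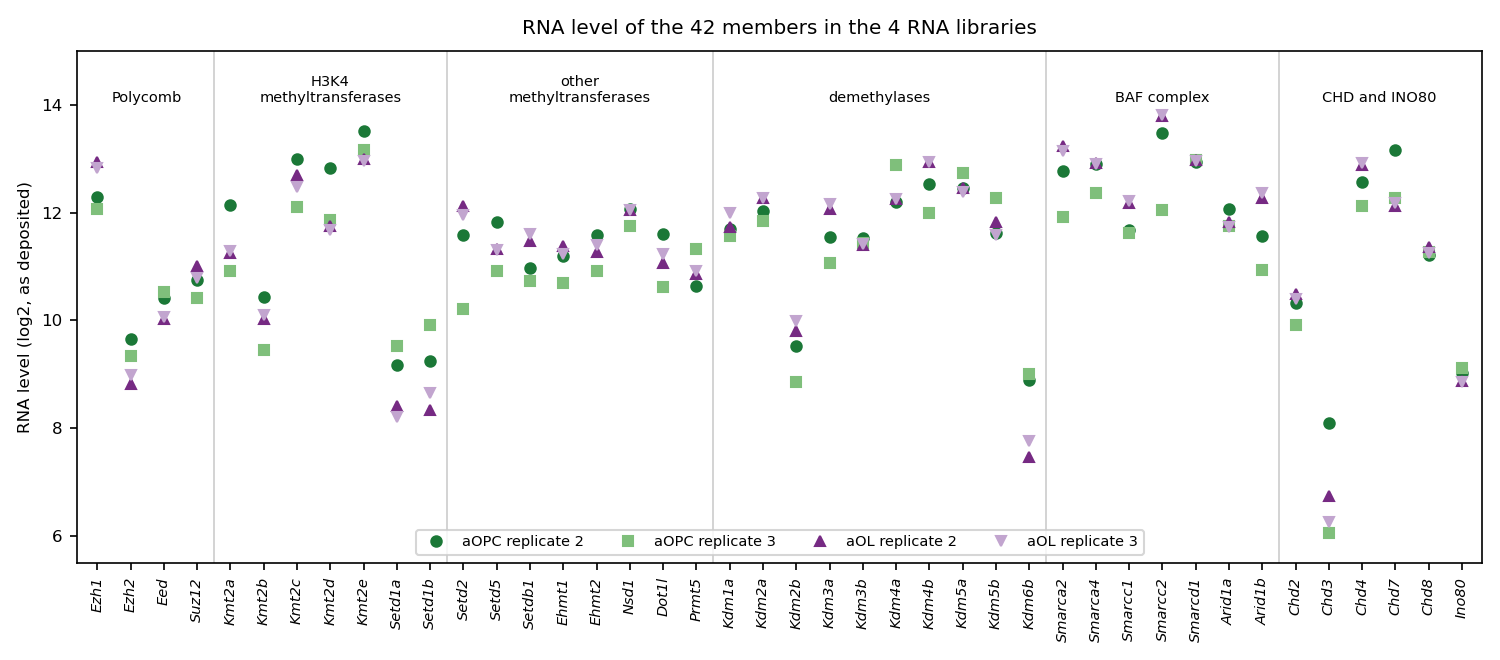
RNA level on the deposited log2 scale for each of the 42 genes in the 4 RNA libraries, ordered by role. Green symbols are the aOPC libraries and purple symbols the aOL libraries. The 2 aOL libraries lay close together for nearly every gene, whereas the aOPC libraries were often apart, as in Setd2, Smarcc2 and Chd3.

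Spread was larger within aOPC than within aOL. The gap between the aOPC libraries had a median of 0.49 over the 42 genes and that between the aOL libraries of 0.08, against 0.48 and 0.12 over all genes tested. aOPC replicate 2 was above replicate 3 for 31 of the 42 genes, and over all 11133 genes for 4961. aOPC replicate 3 was the lowest of the 4 libraries for 25 of the 42. Without aOPC replicate 2, limma called 11 members higher and 4 lower, where 36.3% of all genes were called. Without aOPC replicate 3 it called 1 higher and 6 lower, where 21.3% of all genes were called. In both fits the lone aOPC library was assumed to vary like the aOL libraries. For some of the genes given above, differences without aOPC replicate 2 and without aOPC replicate 3 follow in that order. They were 1.38 and 0.77 in Arid1b, -1.38 and -1.28 in Kdm6b, and -1.21 and -0.86 in Setd1a. Those of Ezh1 were 0.81 and 0.60, of Kdm3a 1.04 and 0.56, and of Setd1b -1.43 and -0.76. Setdb1 had 0.80 and 0.56, and Setd2 1.84 and 0.45. The difference of Chd3 was 0.45 without aOPC replicate 2 and -1.59 without aOPC replicate 3.

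Promoters gave no called member. Of 37 promoters that passed the filter on low counts (Prmt5 and Kdm3a did not), 0 were called by edgeR and 0 were at an unadjusted p under 0.05, where 0.768% of 14579 promoters were called, 4.18% were higher and 1.79% lower. DESeq2 called 0 as well. The smallest p, 0.106, was that of Kdm3b by edgeR's test across all promoters, with a difference of -0.66 (SE 0.39). The median difference over the 37 was -0.25 on the log2 scale, against -0.01 over all promoters. This median moved most without aOPC replicate 2, which had the highest CPM at 37 of the 39 member promoters. Its median CPM there was 5.90, against 1.93 in aOPC replicate 3 and 1.63 and 2.44 in the aOL libraries. Of all its reads, 5.74% lay in CpG islands, against 2.38% to 3.32% in the other 3 libraries. Without aOPC replicate 2, the median difference was 0.01. It was -0.42 without aOPC replicate 3, -0.10 without aOL replicate 2 and -0.42 without aOL replicate 3. With library totals as the only scaling it was -0.88, where that of all promoters was -0.60.

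The promoter of Nsd1 was the most read of the 39 in all 4 libraries, with 148 and 433 reads in aOPC versus 460 and 731 in aOL. That of Kdm1a held 25 and 42 reads against 18 and 52. The 250 bases before its start in the RefSeq promoter table (GRCm38.p6) held 1 CCGG, shown in capitals. That start lies further into the gene than the gene start used above. The bases are printed beside the promoter's values, for which no call was made (difference -0.48, SE 0.41, adjusted p = 0.998 by edgeR).

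Kdm1a promoter, minus strand, chr4:136602724-136602973: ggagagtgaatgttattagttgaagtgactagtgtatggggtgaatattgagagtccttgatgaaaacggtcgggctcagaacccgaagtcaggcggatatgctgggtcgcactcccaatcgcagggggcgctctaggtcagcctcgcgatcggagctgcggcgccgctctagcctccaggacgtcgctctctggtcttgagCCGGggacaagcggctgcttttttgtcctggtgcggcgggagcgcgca

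The site at this CCGG was read 0 and 5 times in aOPC and 1 and 9 times in aOL. The table had a promoter for 30 of the 42 genes. CCGG, the same on both strands, was in 26 of these 30 windows of 300 bases (250 before to 50 after the start), with a median of 3, against 52.8% of all 32851 windows. Of the members' promoter sites, 84.2% were in CpG islands, against 65.9% of promoter sites of all genes. Promoters held 28.3% of the members' sites but only 3.84% to 5.24% of their reads in 3 libraries and 10.7% in aOPC replicate 2. Over all genes, promoters held 28.2% of the sites, and 8.99% to 10.5% of the reads in the same 3 libraries and 16.5% in aOPC replicate 2.

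**Figure D5:**
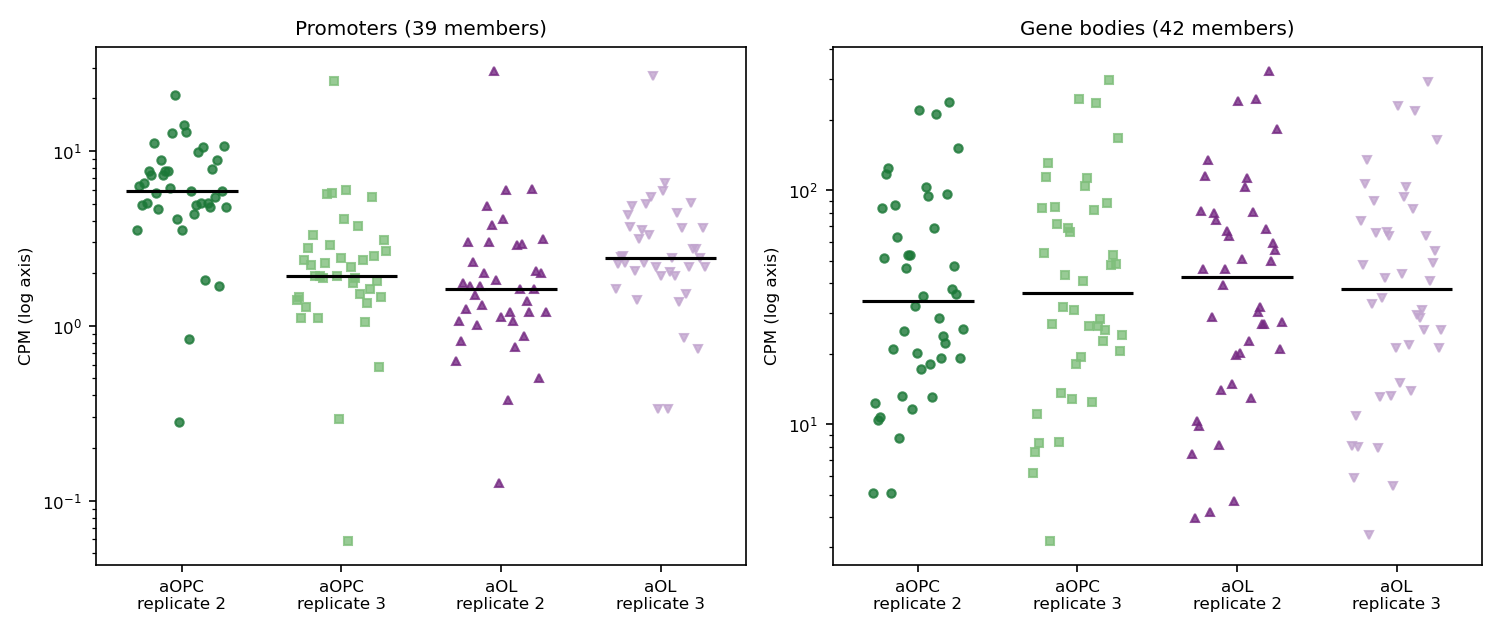
RRHP reads in CPM (log axis) in each of the 4 libraries for the member promoters (left, 39 genes) and gene bodies (right, 42 genes). Each point is a gene and the black line is the median. A site named for both a promoter and an exon or intron counts in both panels. In promoters, aOPC replicate 2 stood above the other 3 libraries with a median of 5.90, whereas the medians of gene bodies lay between 33.6 and 42.6.

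A further list of 92 genes of the same classes, none of them among the 42, gave no called gene in either assay. In RNA, 86 were tested, and 12 were higher and 2 lower at an unadjusted p under 0.05, where 12.1% and 12% of all genes were. The median difference was 0.15, against 0.02 over all genes. Those higher included Kdm5c, an X-linked demethylase of lysine 4, at 11.58 and 11.60 in aOPC versus 12.70 and 12.64 in aOL (difference 1.08, adjusted p = 0.127), and Ss18, a BAF subunit, with a difference of 0.84. Lower in aOL were Bptf, a remodelling subunit that reads lysine 4 methylation (-0.86), and Dpy30, a shared subunit of the lysine 4 complexes (-0.74).

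In gene bodies, 91 of the 92 were tested, and 3 were higher and 4 lower at an unadjusted p under 0.05, where 2.82% and 4.48% of all gene bodies were. The median difference was 0.02, against -0.0027 over all. Setdb2 (3 and 5 reads in aOPC, 23 and 35 in aOL, difference 1.97) and Kdm5c (76 and 208 against 282 and 503, difference 0.64) were higher. Setdb2 passed the filter on low counts through the aOL libraries alone, so its difference is given with that limit. Setd3 (138 and 271 against 146 and 264, difference -0.89, adjusted p = 0.0527) and Gatad2a (259 and 438 against 364 and 601, difference -0.44) were lower. Kdm5c was thus higher in aOL in both assays without passing either test.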

How the data were processed

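The 42 members and the list of 92 further genes were chosen with earlier results of these data known. Per the labels and the study's methods, the authors aligned RNA reads with BWA to mm10, counted them per gene and normalised them with DESeq2 (version 1.2.5 in the submitters' processing notes). The deposited RNA values are on a log2 scale, and their quantiles were nearly equal between libraries. The authors deposited RRHP read counts per CpG site and strand on mm10, with promoter, exon, intron and CpG island columns. The study's methods state a promoter window for pairing RRHP with RNA. The deposited column held promoter sites as far as 1.17 kb past the start of Chd4 used here, further than that window reaches. The RRHP aligner and any removal of duplicates are not given in the sources used here.

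RNA values reaching 5 in 2 or more libraries were compared with limma 3.58.1 (adjusted p over all genes). RRHP counts were summed per gene body and per promoter, older symbols were matched to current ones (for example Mll1 for Kmt2a), and sums and single sites were tested with edgeR 4.0.16 (quasi-likelihood, TMM scaling, filterByExpr or at least 10 reads in 2 libraries, adjusted p over all features). DESeq2 1.42.0 served as an alternative. All fits were tested on simulated data. Members were reported in full where a test called them, where an unadjusted p was under 0.05, or where the difference was the largest of a role group, and called sites by the 8 smallest p. CPM used the library totals of 7113237 to 27057859. Counting intervals are exact (Clopper-Pearson, conditional on the pooled count, 95%) and, like floors of 3 reads per library, cover counting error only. Alternatives were another scaling, another filter, DESeq2, a replicate block and leaving out each library. Replicate 1 was not analysed here.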

Additional observations from a re-analysis of the deposited data

How the results depend on the processing

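Of 200 member counts and medians recomputed under the alternatives, 146 stayed within 1.5 times of the reported count or within the spread between libraries and 54 moved. Of 230 values of single genes and sites, 207 kept their direction and their side of the threshold. Alternatives under which a gene or site failed the filter gave no value and are not among the 230. For each of the 8 named sites these were 10 reads in every library and leaving out either library of its higher population. Kdm1a lost its call only over sites with 3 reads in every library (log2 difference -0.03, 0 members then called lower and 1 gene body higher at an unadjusted p under 0.05), a condition that by construction leaves out the sites low in 1 population. The number of gene bodies higher at an unadjusted p under 0.05 was 1 with DESeq2 and 4 with library totals alone. In RNA, 8 members were higher by that rule with an intensity trend. With 10 reads required in every library, 1 member site was called higher and 0 lower, and 13 and 18 were at an unadjusted p under 0.05. Of the 8 named sites none could then be tested, whereas the called sites of Arid1a were tested and lost their calls. Library totals alone moved the median over all promoters to -0.60, from -0.01, and that of the members to -0.88, and put 2 member promoters lower at an unadjusted p under 0.05. The promoter sites with 3 reads in every library put 1 lower.

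Leaving out each library gave 0 to 11 RNA calls higher and 0 to 6 lower, 0 to 21 and 0 to 13 members at an unadjusted p under 0.05, and a median of 0.0099 to 0.40. For gene bodies the ranges were 0 to 7 called higher, 1 to 3 called lower and 0 to 11 higher at an unadjusted p under 0.05. For sites they were 0 to 35 and 2 to 40 called, and 15 to 144 and 13 to 116 at an unadjusted p under 0.05. For promoters 0 were called, and 0 to 1 were higher and 0 to 5 lower at an unadjusted p under 0.05. The median of gene bodies ran from -0.02 to 0.14. Chd3 in RNA reversed to 0.45 without aOPC replicate 2 and was -1.59 without aOPC replicate 3.

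Same-numbered libraries did not deviate together (correlation of deviations -0.07 in RNA and -0.42 in gene bodies), so the numbers were not treated as pairs. With the replicate number as a block, 2 RNA members were higher at an unadjusted p under 0.05 and 20 member sites were called higher, and no call of a named gene or site changed. With the numbers crossed, a block chosen after seeing the data, 1 gene body was called higher (Chd4) and 3 lower (Kdm1a, Arid1a and Ezh2), where 3.88% of all gene bodies were called, 7 were higher at an unadjusted p under 0.05, 2 promoters were lower at that p, and 24 sites were called higher and 14 lower, where 3.24% of all sites were called. With 2 libraries in each group, small differences were not detectable, and aOPC replicate 2 was the shallowest RRHP library.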
